A study of Arabidopsis thaliana with 9 samples.

Results

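The nuclear genes of the photosynthetic apparatus were examined in imbibed *Arabidopsis thaliana* seeds. The group was defined by gene family and by no threshold on a measured value, though with earlier results of these data known. It holds 44 of the 33557 genes of the authors' deposited table. These are 20 genes of the light-harvesting antennae (LHCA and LHCB) and 5 of Rubisco and its activase (RBCS and RCA). The others are 9 genes of photosystem II (PSB) and 10 of photosystem I (PSA). RNA was sequenced from whole seeds of the Col-0 wild type (WT) and of the loss-of-function mutants *nac1L* (KO1) and *nac25* (KO2), each lacking a different NAC transcription factor, with 3 biological replicates of 20 mg of seed per genotype and 9 libraries in all. Seeds of every genotype had been imbibed on agarose plates for 12 h. The labels used here name neither the mutant alleles nor the light conditions. With 1 time point, dependence on a factor and a difference in the pace of germination cannot be told apart, and in whole seeds fewer cells of a type and less RNA per cell cannot be told apart.

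In a leaf chloroplast the LHCA and LHCB proteins bind chlorophyll and pass light energy to photosystems I and II. The photosystems drive electrons from water to ferredoxin, and Rubisco, built from a plastid-encoded large and a nuclear-encoded small subunit, fixes carbon dioxide. The nuclear genes of this apparatus are known as a set that light and chloroplast signals switch on as a seedling greens. A seed at the start of imbibition has plastids that do not yet photosynthesise.

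The deposited values are the authors' Cuffdiff comparisons, a log2 fold and an adjusted q-value per gene and pair of genotypes, with no value per library. A q of at most 0.05 made a call, higher or lower by the sign of the fold, and the smallest q in the authors' deposited table is 0.000463. The standard error (SE) and the 95% interval given beside some folds are approximations, worked out here from the fold and its deposited p under a normal distribution. They are upper limits of the error for genes at the smallest p of 5e-05. Depth per library is unknown.

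Upstream sequence of 5 members is shown first, since the results below turn on them: the neighbouring Rubisco genes RBCS-2B and RBCS-3B and the oxygen-evolving complex gene PSBQ1 had the lowest called folds in *nac25*, and PSAD1 and PSAD2, a pair of genes for the same photosystem I subunit, were called in opposite directions. Each stretch covers the 250 bases before the gene's annotated start in the RefSeq annotation of TAIR10.1, matched by locus identifier, because the authors' deposited table holds no coordinates and names no build. Capitals mark the G-box CACGTG and the I-box core GATAAG on either strand, motifs known from light-regulated promoters. The element CCAATC, linked to GLK transcription factors, was searched in the same way.
RBCS-2B (AT5G38420, chr5:15382072-15382321, minus strand): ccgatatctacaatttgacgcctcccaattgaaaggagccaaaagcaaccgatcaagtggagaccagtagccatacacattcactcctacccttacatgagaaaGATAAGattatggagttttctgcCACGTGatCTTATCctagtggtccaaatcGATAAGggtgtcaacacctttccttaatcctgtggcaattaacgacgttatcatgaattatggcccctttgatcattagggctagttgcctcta
RBCS-3B (AT5G38410, chr5:15378643-15378892, minus strand): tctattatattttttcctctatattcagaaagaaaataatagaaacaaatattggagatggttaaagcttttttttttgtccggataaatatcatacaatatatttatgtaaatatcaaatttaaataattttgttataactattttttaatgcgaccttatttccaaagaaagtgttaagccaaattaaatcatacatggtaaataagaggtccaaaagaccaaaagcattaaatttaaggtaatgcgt
PSBQ1 (AT4G21280, chr4:11334102-11334351, plus strand): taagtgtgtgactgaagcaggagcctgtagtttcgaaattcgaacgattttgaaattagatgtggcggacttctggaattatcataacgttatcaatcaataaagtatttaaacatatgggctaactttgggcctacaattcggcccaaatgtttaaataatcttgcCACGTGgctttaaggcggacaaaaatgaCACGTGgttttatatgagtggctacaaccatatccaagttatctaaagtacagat
PSAD1 (AT4G02770, chr4:1230165-1230414, minus strand): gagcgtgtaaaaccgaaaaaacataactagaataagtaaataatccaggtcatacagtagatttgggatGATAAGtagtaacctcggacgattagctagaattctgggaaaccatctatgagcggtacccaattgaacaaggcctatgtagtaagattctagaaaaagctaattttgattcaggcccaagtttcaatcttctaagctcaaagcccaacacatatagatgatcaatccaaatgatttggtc
PSAD2 (AT1G03130, chr1:754263-754512, minus strand): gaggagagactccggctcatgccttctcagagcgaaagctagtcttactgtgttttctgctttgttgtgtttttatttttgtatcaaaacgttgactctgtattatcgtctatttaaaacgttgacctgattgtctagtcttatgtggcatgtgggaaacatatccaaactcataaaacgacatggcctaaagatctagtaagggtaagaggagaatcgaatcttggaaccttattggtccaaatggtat
Only the listed letters were searched, and only in these windows, which depend on where the annotation places the start. RBCS-2B held 1 G-box, 123 to 118 bases before the start, and 3 I-box cores. PSBQ1 held 2 G-boxes, 83 to 78 and 55 to 50 bases before the start. PSAD1 held 1 I-box core, and neither RBCS-3B nor PSAD2 held any of these motifs. Of the 44 members 8 held a G-box (18.2%), 11 an I-box core (25.0%) and 12 a CCAATC element (27.3%). Among the same windows of 27443 protein-coding genes the shares were 6.49%, 12.3% and 10.2%. The marked matches do not overlap, and a match is given as a description only.

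Lower values prevailed among the members in both mutants. In *nac1L*, 30 members had a test in the authors' deposited table, of which 11 were lower and 2 higher than in WT, 36.7% and 6.67% of those tested. Among all tested genes percent called was 18.9% for lower and 9.62% for higher. In *nac25*, 16 of 30 were lower and 1 was higher, 53.3% and 3.33% of those tested, against 32.8% and 6.25% of all tested genes in the authors' deposited table. In both directions together 13 and 17 members were called, against 28.5% and 39.0% of all tested genes. The median log2 fold of tested members was -0.37 in *nac1L* and -0.68 in *nac25*, and that of all tested genes -0.07 and -0.27. After the folds were centred on those medians and p recomputed, 9 members were lower and 2 higher in *nac1L* (all tested genes 15.2% lower and 12.4% higher), and 10 were lower and 2 higher in *nac25* (all tested genes 14.8% lower and 15.8% higher). Both directions together, centring left 11 members called in *nac1L* and 12 in *nac25*, against 27.7% and 30.5% of all tested genes. Both comparisons share the WT libraries, so their calls are not independent of each other.

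Stricter rules kept part of these calls. At a q of at most 0.01, 11 members were called in *nac1L* and 13 in *nac25*, against 19.3% and 28.8% of all tested genes. With at least a 2-fold difference 8 and 10 were called, against 7.06% and 11.8%. With q adjusted within each comparison the counts stayed at 13 and 17, against 29.1% and 41.9%.

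**Figure D1:**
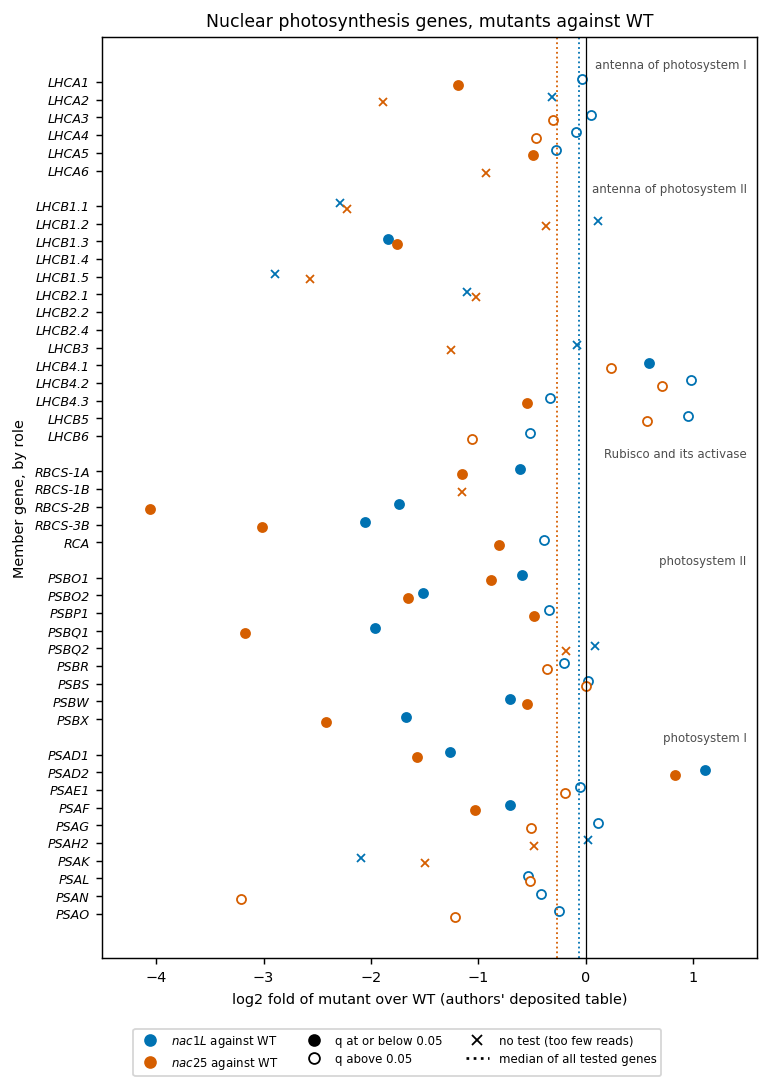
Log2 fold of each mutant over WT for the member genes in the authors' deposited table, by role. Filled circles are called genes, open circles tested genes with q above 0.05, crosses genes without a test, and dotted lines the medians of all tested genes. Folds with a genotype listed at 0 are not drawn. RBCS-2B in *nac25* (-4.05) lies farthest to the left and PSAD2 in *nac1L* (1.12) farthest to the right.

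The remaining 14 members had too few reads for a test in any comparison, and 10 of them were antenna genes. They were LHCA2, LHCA6, LHCB1.1, LHCB1.2, LHCB1.4, LHCB1.5, LHCB2.1, LHCB2.2, LHCB2.4, LHCB3, RBCS-1B, PSBQ2, PSAH2 and PSAK. LHCB1.4 and LHCB2.4 are listed at 0 in all 3 genotypes of the authors' deposited table, LHCA6 and RBCS-1B at 0 in *nac1L*, and LHCB2.2 at 0 in WT and *nac1L*. Of the genes of the main antenna, LHCB1 and LHCB2, LHCB1.3 alone had reads enough for a test. The authors' deposited table gives the name LHCB1.2 to both AT1G29920 and AT1G29910, and these were told apart by locus identifier.

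How Cuffdiff shared out reads among near-identical genes is not described, which bears on the RBCS, LHCB1 and LHCB2 families. Of the 50-base windows in RefSeq transcripts, RBCS-2B shared 21.4% with transcripts of other genes, RBCS-3B 14.6% and RBCS-1A 1.42%. LHCB1.3 shared 17.0% and LHCB2.2 28.2%, the largest share among the members. A further 32 members shared no such window with another gene. Folds of single RBCS-2B, RBCS-3B and LHCB1 genes are therefore less certain than those of the photosystem genes.

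Among the antenna genes the shares called were near or below those of all tested genes. In *nac1L* 1 of 10 tested antenna genes was lower and 1 higher in the authors' deposited table, 10.0% each, against 18.9% and 9.62% of all tested genes. In *nac25* 4 of 10 were lower (40.0%, against 32.8% of all tested genes) and none was higher in the authors' deposited table. After centring, 1 antenna gene was lower and 1 higher in each mutant. LHCB1.3, 1 of 5 genes for the most abundant protein of the trimeric photosystem II antenna, was 3.57-fold lower in *nac1L* (log2 -1.84, SE 0.54, q = 0.00465) and 3.38-fold lower in *nac25* (log2 -1.76, SE 0.49, q = 0.00259) in the authors' deposited table. Its untested copies LHCB1.1 and LHCB1.5 had log2 folds of -2.29 and -2.89 in *nac1L* and of -2.22 and -2.57 in *nac25*, whereas LHCB1.2 stood at 0.12 and -0.37 in the authors' deposited table. Folds of these untested copies rest on too few reads for any comparison among them.

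Among the minor antenna genes, whose proteins sit as single subunits between the trimers and the photosystem II core, values went both ways. LHCB4.1 was 1.5-fold higher in *nac1L* (log2 0.59, SE 0.16, q = 0.00193) and did not pass in *nac25* (log2 0.24, q = 0.277) in the authors' deposited table. After centring it was called higher in *nac25* too, at 0.51 above the median of tested genes. LHCB4.2 (log2 0.99 in *nac1L* and 0.71 in *nac25*) and LHCB5 (0.95 and 0.57) had folds above 0 in the authors' deposited table, with q above 0.05 in each comparison. LHCB4.3, which also encodes a form of this antenna protein, was 1.46-fold lower in *nac25* (log2 -0.55, SE 0.17, q = 0.00625) and had a log2 fold of -0.33 in *nac1L* (q = 0.0957) in the authors' deposited table. LHCB6 had an approximate interval from -6.19 to 4.07 for *nac25* against WT, so that no change of ordinary size could have been told apart from none.

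Of the photosystem I antenna, LHCA1, which pairs with LHCA4 at the edge of the photosystem, had different calls in the mutants. It was 2.27-fold lower in *nac25* than in WT (log2 -1.19, SE 0.46, q = 0.0382) and stood at -0.04 in *nac1L* (q = 0.958) in the authors' deposited table. The direct comparison of the mutants also called LHCA1, 2.22-fold lower in *nac25* (log2 -1.15, q = 0.037) in the authors' deposited table. LHCA5, a low-abundance antenna protein, was 1.4-fold lower in *nac25* (log2 -0.49, q = 0.0249) in the authors' deposited table. The LHCA1 call between the mutants was lost at a q of at most 0.01, under adjustment within the comparison and after centring (q = 0.113). The LHCA1 and LHCA5 calls in *nac25* against WT were lost after centring, as was that of LHCB4.3. For LHCA3 the log2 folds were 0.05 in *nac1L* and -0.30 in *nac25*, and for LHCA4 -0.09 and -0.46, none of them called in the authors' deposited table.

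Rubisco genes had the lowest median of the 5 roles in both mutants, -1.18 in *nac1L* and -2.08 in *nac25* over the 4 with a test. The small subunit stabilises the large catalytic subunits. RBCS-1A was 1.53-fold lower in *nac1L* (log2 -0.61, SE 0.15) and 2.22-fold lower in *nac25* (log2 -1.15, SE 0.28), each with q = 0.000463 in the authors' deposited table. RBCS-3B was 4.16-fold lower in *nac1L* (log2 -2.06, SE 0.51) and 8.07-fold lower in *nac25* (log2 -3.01, SE 0.74), again with q = 0.000463 in the authors' deposited table. Its neighbour RBCS-2B was 3.34-fold lower in *nac1L* (log2 -1.74, SE 0.45, q = 0.000866) in the authors' deposited table. In *nac25* RBCS-2B was 16.6-fold lower (log2 -4.05, SE 1.00, q = 0.000463) in the authors' deposited table. RBCS-1B had no test. Its log2 fold was -1.15 in *nac25* in the authors' deposited table. RCA, the activase that frees Rubisco of inhibitory sugar phosphates, was 1.75-fold lower in *nac25* (log2 -0.81, SE 0.20, q = 0.000463) and missed the threshold in *nac1L* (log2 -0.39, q = 0.0586) in the authors' deposited table.

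Photosystem II genes were lower in 5 of 8 tests in *nac1L* and in 6 of 8 in *nac25*, and none was higher in the authors' deposited table, against 18.9% and 32.8% of all tested genes lower. After centring 4 of 8 and 3 of 8 were lower, against 15.2% and 14.8%. The largest changes were in extrinsic proteins of the oxygen-evolving complex, which shield the manganese cluster that splits water, and in the small subunit PSBX. PSBQ1 was 3.88-fold lower in *nac1L* (log2 -1.96, SE 0.48) and 9.0-fold lower in *nac25* (log2 -3.17, SE 0.78), with q = 0.000463 for both in the authors' deposited table. Its copy PSBQ2 had no test and log2 folds of 0.09 and -0.18 in the authors' deposited table. PSBX was 3.18-fold lower in *nac1L* (log2 -1.67, SE 0.41) and 5.36-fold lower in *nac25* (log2 -2.42, SE 0.60), with q = 0.000463 for both in the authors' deposited table.

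The manganese-stabilising protein is encoded by PSBO1 and PSBO2, and both were lower in both mutants. PSBO2 was 2.85-fold lower in *nac1L* (log2 -1.51, SE 0.37) and 3.15-fold lower in *nac25* (log2 -1.66, SE 0.41), with q = 0.000463 for both in the authors' deposited table. PSBO1 was 1.51-fold lower in *nac1L* (log2 -0.59, SE 0.22, q = 0.0296) and 1.84-fold lower in *nac25* (log2 -0.88, SE 0.24, q = 0.00226) in the authors' deposited table, calls that centring removed in both mutants. PSBW, a small subunit of the photosystem II dimer, had log2 folds of -0.70 (q = 0.00159) and -0.55 (q = 0.0242) in the authors' deposited table, and kept its call after centring in *nac1L* but not in *nac25*. PSBP1, a further extrinsic protein, was 1.39-fold lower in *nac25* (log2 -0.48, q = 0.0287) and had a log2 fold of -0.34 in *nac1L* (q = 0.108) in the authors' deposited table. Centring removed the PSBP1 call.

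By contrast, PSBS, which senses lumen acidity to dissipate excess light and is no part of the oxygen-evolving complex, had log2 folds of 0.03 in *nac1L* (approximate 95% interval -0.27 to 0.32) and 0.00 in *nac25* (-0.32 to 0.33) in the authors' deposited table. The precision for PSBS would have shown a change of the size seen for PSBX. PSBR, a membrane protein linked to the oxygen-evolving complex, had log2 folds of -0.20 (q = 0.609) and -0.36 (q = 0.298) in the authors' deposited table.

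Of 8 tested photosystem I genes 2 were lower and 1 was higher in each mutant, 25.0% and 12.5%. Among all tested genes 18.9% were lower and 9.62% higher in *nac1L*, and 32.8% and 6.25% in *nac25*. After centring 1 photosystem I gene was lower and 1 higher in *nac1L*, and 2 and 1 in *nac25*. All tested genes were then 15.2% lower and 12.4% higher in *nac1L*, and 14.8% and 15.8% in *nac25*. PSAD1 and PSAD2 encode the stromal subunit at which ferredoxin docks, and PSAD1 was 2.4-fold lower in *nac1L* (log2 -1.26, SE 0.32, q = 0.000866) and 2.98-fold lower in *nac25* (log2 -1.57, SE 0.39, q = 0.000463) in the authors' deposited table. PSAD2 was instead 2.17-fold higher in *nac1L* (log2 1.12, SE 0.28, q = 0.000463) and 1.78-fold higher in *nac25* (log2 0.83, SE 0.25, q = 0.00573) in the authors' deposited table. These opposite calls remained in both mutants after centring, and neither gene shared a 50-base window with another gene. Without centring PSAD2 was the only member called higher in both mutants, and after it LHCB4.1 was higher in both as well. How the sum of both genes changed could not be worked out, since the levels are not given.

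PSAF, the subunit that receives electrons from plastocyanin, was 1.63-fold lower in *nac1L* (log2 -0.70, SE 0.26, q = 0.0282, lost after centring) and 2.04-fold lower in *nac25* (log2 -1.03, SE 0.28, q = 0.00193) in the authors' deposited table. PSAE1, PSAG, PSAL, PSAN and PSAO did not pass in either mutant. PSAN had a log2 fold of -3.21 in *nac25* with q = 0.318 in the authors' deposited table, and its approximate interval ran from -7.79 to 1.37. PSAO stood at -1.22 in *nac25* (q = 0.0979) in the authors' deposited table. PSAK, without a test, stood at log2 -2.10 in *nac1L* and -1.50 in *nac25* in the authors' deposited table, and PSAH2 0.02 and -0.48.

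**Figure D2:**
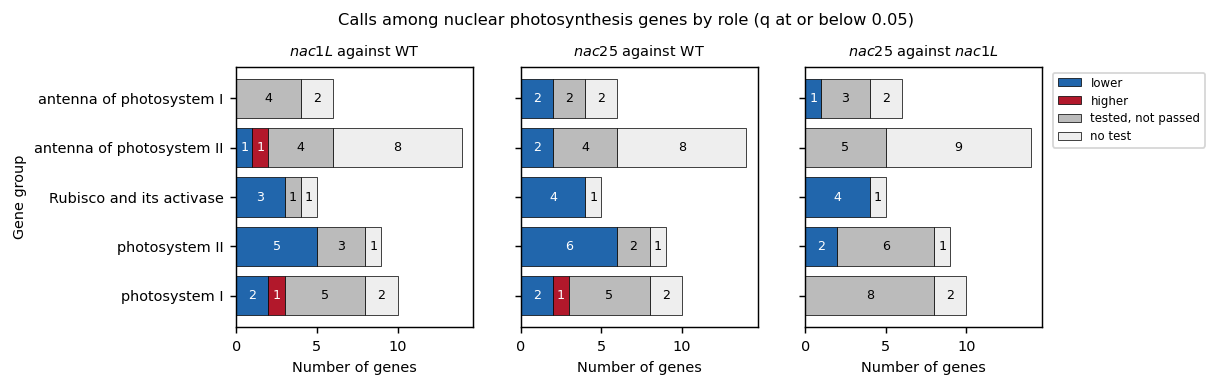
Number of member genes called lower, called higher, tested without passing, or without a test, by role and comparison (q at or below 0.05 in the authors' deposited table). All 4 tested genes of Rubisco and its activase were lower in *nac25* than in WT and than in *nac1L*, whereas 8 of 14 photosystem II antenna genes had no test against WT.

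The direct comparison asked whether the mutants differed from each other. Of 29 tested members 7 were lower in *nac25* than in *nac1L* (24.1%, against 11.7% of all tested genes) and none was higher in the authors' deposited table, where 0.609% of all tested genes were higher and 12.3% were called in either direction. All 4 tested Rubisco genes were among the 7. RBCS-2B was 4.97-fold lower in *nac25* (log2 -2.31, SE 0.79, q = 0.017), RBCS-3B 1.94-fold (log2 -0.95, SE 0.24, q = 0.000463) and RBCS-1A 1.45-fold (log2 -0.54, SE 0.13, q = 0.000463) in the authors' deposited table. RCA was 1.34-fold lower (log2 -0.42, SE 0.17, q = 0.0495), close to the threshold in the authors' deposited table. PSBQ1 was 2.32-fold lower (log2 -1.21, SE 0.40, q = 0.012) and PSBX 1.69-fold (log2 -0.75, SE 0.23, q = 0.00729) in the authors' deposited table, beside LHCA1 above.

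This comparison had a median log2 fold of -0.20 over all tested genes. After centring, RBCS-2B and RBCS-3B were the only members still called, 2 of 29 (6.90%, against 1.56% of all tested genes lower, 2.72% higher and 4.27% in either direction). PSBQ1 at -1.01 (centred q = 0.0504) and RBCS-1A (centred q = 0.0518) just missed the threshold, and the SE of RBCS-1A is an upper limit. LHCA1 stood at -0.95 after centring. With Benjamini-Hochberg adjustment within this comparison alone, 4 of the 7 calls held (5.44% of all tested genes were called), at a q of at most 0.01 there were 3 (4.36%), and with at least a 2-fold difference 3 (1.01%). LHCA1, RCA, LHCA5, LHCB4.3 and PSBP1 were lower than in WT in *nac25* and not called in *nac1L*, and LHCA1 and RCA were called between the mutants. LHCA5, LHCB4.3 and PSBP1 had log2 folds of -0.21, -0.21 and -0.14 between the mutants with q above 0.05 in the authors' deposited table, so a difference between the mutants was not shown for them. For PSBO2 the log2 fold between the mutants was -0.14 (approximate 95% interval -0.68 to 0.39) and for PSAD2 -0.29 (-0.67 to 0.10).

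**Figure D3:**
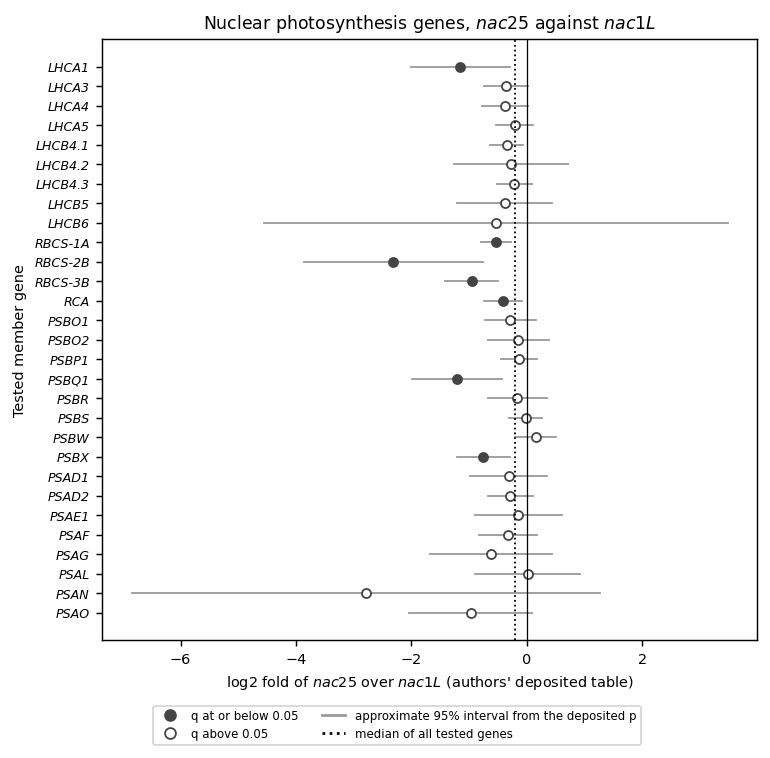
Log2 fold of *nac25* over *nac1L* for the 29 tested members in the authors' deposited table, with approximate 95% intervals worked out from the deposited p and the median of all tested genes as a dotted line. RBCS-2B (-2.31) is the lowest called gene, and PSAN and LHCB6 have the widest intervals.

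Other genes of photosynthesis were followed in 8 lists with 95 genes, of which 45 were lower and 3 higher among 91 tested in *nac1L*, and 56 lower and 2 higher among 91 in *nac25* (Cuffdiff calls in the authors' deposited table). These lower calls were 49.5% and 61.5% of the tested genes, against 18.9% and 32.8% of all tested genes. The lists were chosen with earlier results of these data known, so the shares are a description and no independent support. After centring, 38 were lower in each mutant (41.8%, against 15.2% and 14.8% of all tested genes), with 3 higher in *nac1L* and 7 in *nac25*. Electron carriers and the chloroplast ATP synthase had 8 lower and none higher of 10 in each mutant, with median log2 folds of -0.93 in *nac1L* and -1.17 in *nac25*, and after centring 6 were lower in *nac1L* and 5 in *nac25*. The gamma subunit gene ATPC1 (log2 -1.96 and -2.59) and the plastocyanin gene PETE2 (-1.56 and -2.57) were the lowest called genes of this list in the authors' deposited table. The Calvin cycle had 7 lower of 15 in *nac1L* and 9 of 15 in *nac25*, none higher, led by the plastid aldolase gene FBA2 (log2 -1.74 and -2.15) in the authors' deposited table. After centring 6 Calvin cycle genes were lower in each mutant, and 2 were higher in *nac25*.

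Chlorophyll synthesis genes were lower in 10 of 19 tests in *nac1L* and in 15 of 19 in *nac25*. These were 52.6% and 78.9%, against 18.9% and 32.8% of all tested genes. After centring 10 were lower in each mutant, with 1 higher in *nac1L* and 2 in *nac25* (all tested genes 15.2% and 14.8% lower). GUN4, an activator of magnesium chelatase, had the lowest fold of this list in *nac1L* (log2 -2.32) and was also lower in *nac25* (log2 -1.64). The chelatase subunit gene CHLI2 stood at -1.61 and -1.93 in the authors' deposited table. The protochlorophyllide reductase gene PORB was lower in *nac25* (log2 -2.16, q = 0.00519) in the authors' deposited table. In *nac1L* PORB did not pass (log2 -0.73, q = 0.176), and between the mutants it had too few reads for a test. CAO, whose enzyme makes the chlorophyll b that the antenna binds, went the other way, at 0.67 in *nac1L* and 0.45 in *nac25* (q = 0.000463 and 0.0164 in the authors' deposited table). Of 5 genes that carry antenna proteins to the thylakoid 3 were lower in each mutant (60.0%, against 18.9% and 32.8% of all tested genes). After centring 2 of them were lower in *nac1L* and 3 in *nac25*. CPSRP43, a chaperone of the antenna proteins, stood at -1.69 and -2.61 in the authors' deposited table. Among 11 other photosystem proteins and assembly factors 4 were lower and 1 higher in *nac1L*, and 3 and 1 in *nac25*, or 2 and 1, and 2 and 3, after centring. Lower calls were 36.4% in *nac1L* and 27.3% in *nac25*, against 18.9% and 32.8% of all tested genes. After centring they were 18.2% in each mutant, against 15.2% and 14.8%. PSBY (log2 -2.15 and -2.57) and PSBTN (-1.44 and -2.31) were the lowest called genes, and LHCB7 was higher (0.78 and 0.57) in the authors' deposited table.

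Regulators of these genes were lower in 9 of 14 tests in *nac1L* and in 13 of 14 in *nac25*, or 8 and 7 after centring. By comparison, 18.9% and 32.8% of all tested genes were lower, or 15.2% and 14.8% after centring. GLK1, which activates antenna and chlorophyll genes, had log2 folds of -1.04 and -1.19, and the GATA factor gene GNC -1.37 and -1.55 in the authors' deposited table. ABI4, an abscisic acid regulator, stood at -1.37 and -1.66 in the authors' deposited table. PIF1, a repressor of chlorophyll genes in the dark, was the 1 higher member, in *nac1L* (log2 0.34, q = 0.0217) in the authors' deposited table. In *nac25* all 14 regulators had folds below 0, PIF1 and the related PIF3, PIF4 and PIF5 included. So did 72.4% of all tested genes. Of 7 genes for antenna-like stress and chlorophyll-handling proteins 3 were lower in *nac1L* and 4 in *nac25*, before and after centring. These were 42.9% and 57.1%, against 18.9% and 32.8% of all tested genes before centring and 15.2% and 14.8% after it. LIL3:1, an antenna-like protein needed for chlorophyll synthesis, stood at -1.38 and -1.73 in the authors' deposited table. Of 10 plastid-encoded partners, all tested, 1 was called in each mutant, namely PSBA, the D1 reaction centre protein, at -1.22 and -0.96 in the authors' deposited table. That is 10.0% lower in each mutant, below the 18.9% and 32.8% of all tested genes. The median log2 folds of these 10 genes were -0.35 in *nac1L* and -0.40 in *nac25*, below the -0.07 and -0.27 of all tested genes.

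**Figure D4:**
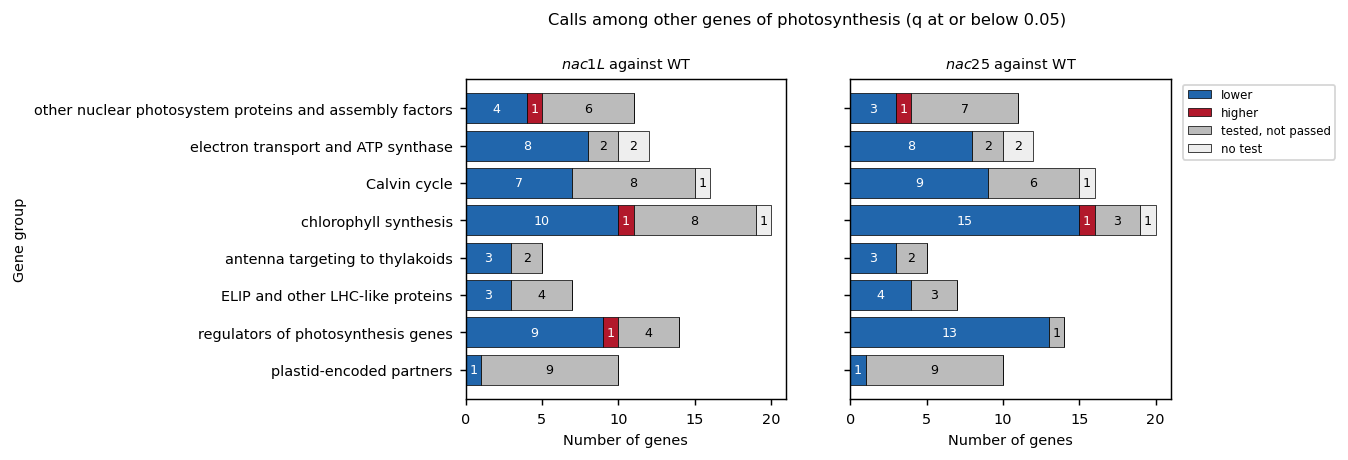
Calls among 8 further lists of photosynthesis genes for each mutant against WT (q at or below 0.05 in the authors' deposited table). In *nac25* 15 of 19 chlorophyll synthesis, 13 of 14 regulator and 8 of 10 electron transport genes are lower, and 1 of 10 plastid-encoded partners was called in each mutant. Among all tested genes 18.9% were lower in *nac1L* and 32.8% in *nac25*.

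Tissue markers moved in the same comparisons, and their part in the results above was not tested. The storage protein and oil body genes that define a seed were present: in both mutants 4 of 8 went untested because their reads exceeded Cuffdiff's limit. Of the remaining 4, 2 were lower in *nac1L*, and 1 was lower and 2 were higher in *nac25*. Embryo markers were lower in 3 of 7 tests in *nac1L* (42.9%, against 18.9% of all tested genes) and in 4 of 7 in *nac25* (57.1%, against 32.8%), and in 3 and 2 after centring. Among them were SHR at log2 -2.78 and -3.06 and LTP1 at -1.95 and -3.25, while ATML1 (-0.11 and -0.11) and SCR (-0.15 and -0.18) did not pass in the authors' deposited table. All 3 tested endosperm markers were lower in both mutants, against 18.9% and 32.8% of all tested genes. EXPA2 among them stood at -4.21 and -4.88 in the authors' deposited table. The fourth marker, EPR1, exceeded Cuffdiff's limit on reads. Of 5 seed coat markers 1, MUM4, had a test and did not pass (log2 0.26 and 0.02 in the authors' deposited table), and BAN is listed at 0 in all 3 genotypes. The targeted genes NAC25 (NAC025) and NAC1L (taken as AT3G12977) were lowest in the mutants named after them, at log2 -3.97 and -4.61 against WT in the authors' deposited table, but had too few reads for a test.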

How the data were processed

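RNA-seq of 9 seed libraries (3 genotypes, 3 biological replicates each) was analysed from the authors' deposited comparison table. The submitters' processing notes name Cuffdiff 2.2.1.3, TopHat2 2.1.0 and FastQC 0.11.5. Build, annotation and normalization were not given in the sources used here. Per the file headers, the table holds a log2 fold (second genotype over first), an unadjusted p-value and an adjusted q-value per gene and comparison. Benjamini-Hochberg adjustment of the deposited p-values over all 54131 tests gave the deposited q-values within 5.27e-07. The direction of the folds rests on the headers and on NAC25 and NAC1L being lower in their own mutants. Neither gene had reads enough for a test. Each also had a fold below 0 in the other mutant, at log2 -2.66 for NAC25 in *nac1L* and -1.89 for NAC1L in *nac25*. Spreadsheet errors in the deposited log2 fold column (3122 cells) were read as minus infinity. The table gives no depth or level per library, so no spread between replicates is printed. Counts or per-library values had been provided for in the design but are not used here, so the authors' test stands alone.

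All 44 members are in the table, none merged with another gene. Members and lists were chosen with earlier results of these data known. Any member could be named. In other lists the rule named up to 3 called genes with the largest folds per list and mutant, and any called in the opposite direction. Members and markers outside this rule (untested genes, and markers that did not pass) were named to complete their group. The centred analysis subtracted the median fold of tested genes, kept the SE implied by the fold and its p, and adjusted over all tests. It was tested on simulated data in which few genes changed, in either direction at random. The simulation does not show how centring fares where many genes are called and most are lower, as here. Alternatives were a q of 0.01, adjustment within a comparison, centring, a minimum 2-fold difference, and leaving out RBCS, LHCB1 and LHCB2. Sequences came from the RefSeq annotation of TAIR10.1 by locus identifier (44 matched). Calculations used Python 3.11.15, numpy 2.4.6, pandas 2.3.3, scipy 1.17.1 and matplotlib 3.10.9.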

Additional observations from a re-analysis of the deposited data

How the results depend on the processing

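No paired analysis was possible because the deposited table carries no value per library, and leaving out replicates, another normalization and a filter on low values were not run for the same reason. At a q of 0.01 or lower, 11, 13 and 3 members were called in the *nac1L* comparison with WT, that of *nac25* with WT and that between the mutants, compared with 13, 17 and 7 at 0.05. With at least a 2-fold difference the counts were 8, 10 and 3, and without RBCS, LHCB1 and LHCB2 they were 9, 13 and 4 of 26 tested. Of those 26, 26.9%, 46.2% and 15.4% were lower (all tested genes 18.9%, 32.8% and 11.7%), or 19.2%, 23.1% and 0 after centring (all tested genes 15.2%, 14.8% and 1.56%). Adjustment within a comparison left 13, 17 and 4. Centring left 11, 12 and 2, with lower calls at 9, 10 and 2 and higher calls at 2, 2 and 0. No member's call changed direction under these alternatives. The median log2 folds of -0.37, -0.68 and -0.35 became -0.30, -0.41 and -0.15 relative to all tested genes, -0.34, -0.88 and -0.32 over all members with a finite fold, and -0.30, -0.53 and -0.32 without the close copies. Calls of fewer members at the stricter q and at 2-fold follow from those settings' construction, and for centring from the shift of all genes. Untested members had too few reads, so that nothing was detectable for them at this depth.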
